A study of Rattus norvegicus with 10 samples.

Results

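The scaffold proteins of the excitatory postsynaptic density were examined at the transcript level through 9 genes, chosen by symbol: Shank1, Shank2 and Shank3, Homer1, Homer2 and Homer3, Dlg2 and Dlg4, and Dlgap1. All 9 were among the 17168 rows of the count table, and all 9 were among the 11682 genes with enough counts to be tested. The tissue was left hippocampus, taken from 10 female rats of the TgF344-AD line, of which 5 ate ibudilast chow and 5 ate untreated chow. Ibudilast inhibits phosphodiesterases that break down cyclic AMP and cyclic GMP. Feeding began at 5 months of age and lasted 6 months, so both groups were aged 11 months. The dose is not given in the labels used here. Both groups were transgenic, so the untreated rats carried the same transgenes as the treated ones, and no wild-type rats were analysed here. TgF344-AD rats are a transgenic Fischer 344 line used as a model of Alzheimer's disease, with transgenes driven by the mouse prion promoter. Each library had its own animal tag, and a library is called by its treatment and replicate number (ibudilast 3, for example). The comparison asks how the hippocampal level of each scaffold transcript differed between treated and untreated transgenic females.

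The postsynaptic density is the protein sheet under the membrane of an excitatory synapse that holds glutamate receptors opposite the release site. Membrane-associated guanylate kinases, among them PSD-95 (Dlg4) and PSD-93 (Dlg2), bind NMDA receptors and the partners of AMPA receptors, the DLGAP proteins bind the guanylate kinases from below, SHANK proteins bind the DLGAPs, and HOMER proteins link SHANK to group I metabotropic glutamate receptors and to the IP3 receptor of internal calcium stores. Levels are given in CPM, read counts put on a common library size with TMM factors, and CPM is not corrected for transcript length, so levels are compared between libraries and not between genes. The libraries are of tissue, so fewer cells of a type and less RNA per cell cannot be told apart.

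Before the members are described, the make-up of the libraries needs stating, because marker genes differed between the groups. Total estimated counts ran from 6960066 to 10121571. Calls are by the test given in the next paragraph, by which 20.0% of all tested genes were higher and 18.5% lower with ibudilast. The 14 neocortical neuron markers found in the file had a summed level of 643 to 1004 CPM without and 909 to 1504 CPM with ibudilast, and 8 of 14 were higher with ibudilast. The 19 hippocampal principal neuron markers in the file had a summed level of 1417 to 3041 CPM without and 1314 to 1919 CPM with ibudilast, and 8 of the 16 that could be tested were lower. Ibudilast 3 held 5256 CPM of cerebellar markers, and the other 9 libraries 312 to 388 CPM. Among glia, 9 of 10 microglia markers and 5 of 10 astrocyte markers were lower with ibudilast (588 to 930 against 295 to 524 CPM, and 6162 to 9475 against 4201 to 5822 CPM, summed) and 0 of 9 oligodendrocyte markers passed. Choroid plexus markers reached 2586 CPM in untreated 1, and endothelial and meningeal markers 754 CPM in ibudilast 5 and 708 CPM in ibudilast 3. No neocortical, hippocampal or cerebellar marker in the file was at 0 in all libraries, and the sum of 10 general neuronal markers overlapped between the groups (7844 to 11141 CPM untreated, 7826 to 11248 CPM ibudilast). The part of tissue make-up in the results below was not tested, and results are given with and without ibudilast 3 where they rest on it.

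The transcripts of Shank2 and Dlg2 were higher in the ibudilast group, and the other 7 scaffold transcripts did not pass the test. The test was edgeR's quasi-likelihood test with Benjamini-Hochberg adjustment over all 11682 genes, and a gene was called at an adjusted p under 0.05. By that rule 20.0% of all tested genes were higher and 18.5% lower with ibudilast, so 2 higher members of 9 is a share near the background. No member was lower. The median log2 fold change of the 9 was 0.42, against 0.0071 for all tested genes. The size of that gap varied among the adjusted fits described further below. Once the trend of expression on gene span was removed, the 9 had a median of 0.031, and all tested genes -0.026. Adjusting for neocortical marker level gave 0.076 for the 9 and 0.0071 for all tested genes. Adjusting for hippocampal marker level kept the gap, at 0.51 and -0.024. Ibudilast 3 had the lowest level of the 5 ibudilast libraries for 7 of the 9 members and the highest for 1, Homer3. Without that library 5 of 9 members were higher (Shank1, Shank2, Homer1, Dlg2 and Dlgap1), where 22.0% of all tested genes were, and the median of the 9 was 0.50. Ibudilast 3 was the lowest of its group for each of these 5. Leaving it out therefore raises their fold changes, and the count of 5 is no separate support. With ibudilast 3, ibudilast 5 and untreated 1 all left out the count was 4 (15.0% of all tested genes higher), with library totals in place of TMM factors it was also 4 (22.1%), and with DESeq2 it was 3 (20.1%).

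**Figure D1:**
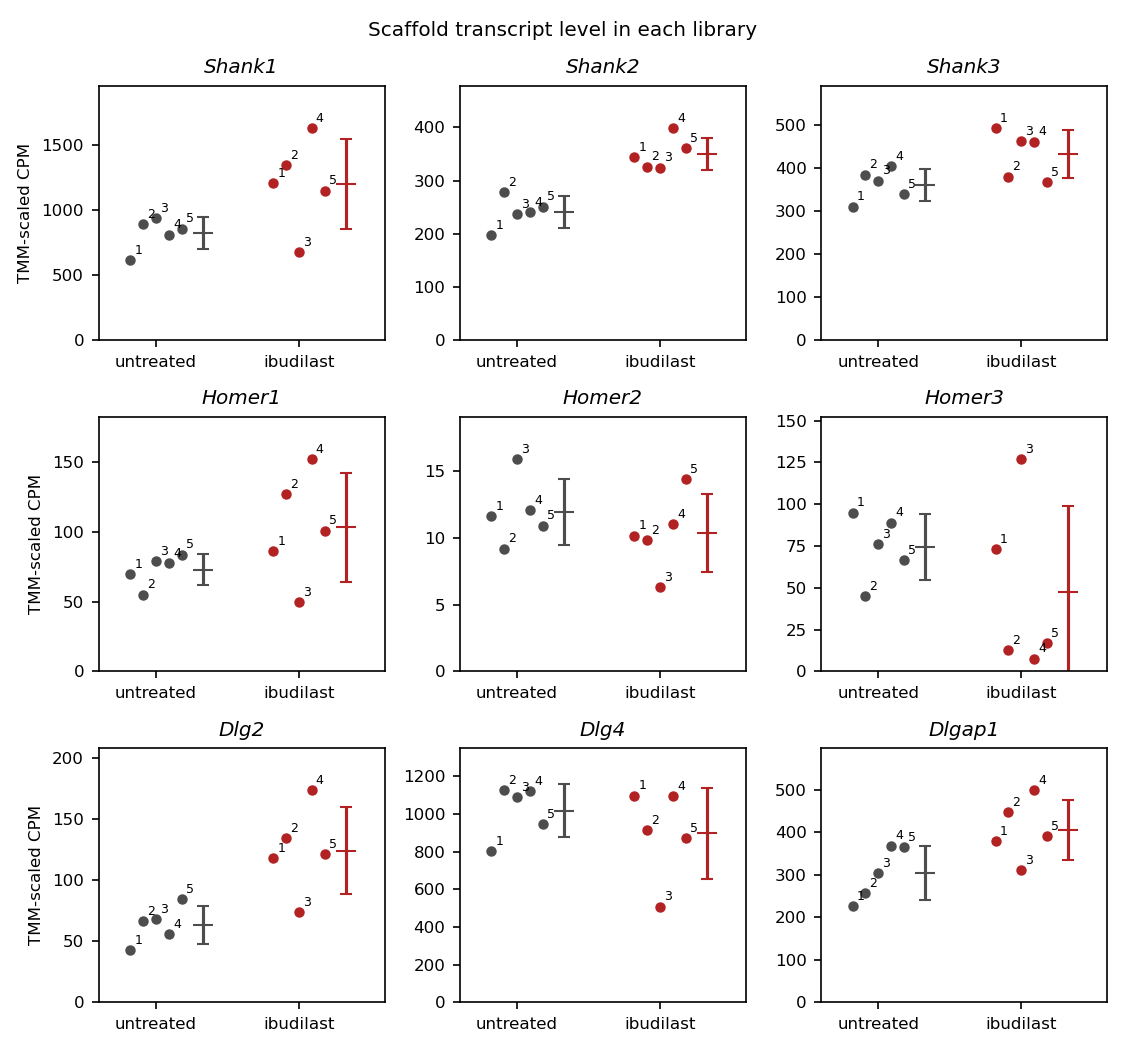
Level of each scaffold transcript (vertical axis, TMM-scaled CPM, from 0) in the 5 untreated (grey) and 5 ibudilast (red) libraries, numbered by replicate, with the group mean and SD beside them (the lower SD bar of Homer3 in the ibudilast group runs past 0 and is clipped at the axis). The Shank2 groups do not overlap (198 to 279 against 325 to 398 CPM), while ibudilast 3 sits at 682 CPM for Shank1 and 74.1 CPM for Dlg2, below the other ibudilast libraries.

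The Shank genes encode the large ankyrin-repeat scaffolds that form the deep layer of the density. Shank2 stood at 198, 279, 237, 241 and 251 CPM in untreated 1 to 5 and at 344, 326, 325, 398 and 361 CPM in ibudilast 1 to 5. Every ibudilast library was above every untreated library, a separation upward that 12.5% of all tested genes showed. This gave a log2 fold change of 0.54 ± 0.10 (SE, n = 5 each; edgeR adjusted p = 0.00303), a 1.45-fold higher level. Shank2 was the only member with estimated counts that were not whole, which it had in all 10 libraries, so part of its reads was shared out between features by the authors' software. It passed in each of the 10 fits that left out 1 library, with log2 fold changes between 0.48 and 0.60.

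Shank1, whose product is a scaffold of mature dendritic spines, had a fold change of like size and a wider spread. It stood at 617, 897, 938, 813 and 861 CPM in untreated 1 to 5 and at 1209, 1352, 682, 1632 and 1153 CPM in ibudilast 1 to 5. Ibudilast 1, 2, 4 and 5 were above every untreated library, and ibudilast 3 was below 4 of the 5. The log2 fold change was 0.55 ± 0.21 (SE), and the gene missed the threshold (edgeR adjusted p = 0.0549). Without ibudilast 3 it passed, at 0.70 ± 0.14 (SE; edgeR adjusted p = 0.00333). Of the 10 fits without 1 library, Shank1 passed only in that 1.

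Shank3, the family member whose loss causes Phelan-McDermid syndrome in people, had the smallest fold change of the family. It stood at 311, 385, 371, 404 and 339 CPM in untreated 1 to 5 and at 492, 381, 463, 461 and 368 CPM in ibudilast 1 to 5. Ibudilast 2 and ibudilast 5 lay inside the untreated range, and the other 3 lay above it. Its log2 fold change was 0.26 ± 0.11 (SE; edgeR adjusted p = 0.0866), and it passed in 0 of the 10 fits without 1 library (0.21 to 0.31). Unlike Shank1 and Shank2, Shank3 was not at its lowest in ibudilast 3.

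The Homer genes encode the coiled-coil adaptors that tie SHANK to receptors and calcium stores. Homer1 makes a long scaffold form and a short form, Homer1a, which neurons induce on activity and which uncouples the long forms. The gene-level counts hold both forms together, so they could not be told apart. Homer1 stood at 69.8, 55.1, 78.9, 77.4 and 83.7 CPM in untreated 1 to 5 and at 86.4, 127, 49.8, 152 and 101 CPM in ibudilast 1 to 5. Ibudilast 3 had the lowest level of all 10 libraries and the other 4 ibudilast libraries were above every untreated one. Homer1 had a fold change of 0.50 ± 0.25 on the log2 scale (SE; edgeR adjusted p = 0.128), and without ibudilast 3 it was 0.68 ± 0.16 and passed (edgeR adjusted p = 0.00844). Of the 10 fits without 1 library, Homer1 passed only in that 1.

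Homer3 had the widest spread of the 9 members in the ibudilast group. It stood at 95.0, 45.0, 76.3, 89.0 and 66.5 CPM in untreated 1 to 5 and at 73.1, 12.6, 127, 7.62 and 17.0 CPM in ibudilast 1 to 5. Ibudilast 2, 4 and 5 were below every untreated library, ibudilast 1 lay among them, and ibudilast 3 was above them all. Homer3 is a scaffold of cerebellar Purkinje cells as well as of forebrain neurons, and ibudilast 3 was the library with 5256 CPM of summed cerebellar markers. The part of cerebellar tissue in the Homer3 level of that library was not tested. The log2 fold change of Homer3 was -0.65 ± 0.65 (SE; edgeR adjusted p = 0.451) with all libraries. It was -1.43 ± 0.56 without ibudilast 3, which still missed the threshold (edgeR adjusted p = 0.0610). The coefficient of variation was 109% in the ibudilast group against 26.6% in the untreated group.

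Homer2, the least counted member with 56 to 152 counts per library, did not pass the test. It stood at 11.6, 9.18, 15.9, 12.1 and 10.9 CPM in untreated 1 to 5 and at 10.2, 9.80, 6.31, 11.0 and 14.4 CPM in ibudilast 1 to 5. The ranges overlapped, with 4 of the 5 ibudilast libraries inside the untreated range. The log2 fold change was -0.20 ± 0.21 (SE; edgeR adjusted p = 0.476).

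Dlg2 and Dlg4 encode the paralogous guanylate kinase scaffolds PSD-93 and PSD-95, and the first passed the test where the second did not. Dlg2 stood at 42.9, 66.5, 68.4, 55.8 and 84.8 CPM in untreated 1 to 5 and at 118, 134, 74.1, 174 and 121 CPM in ibudilast 1 to 5. The groups overlapped through ibudilast 3, which was below untreated 5, and the other 4 ibudilast libraries were above every untreated one. For Dlg2 the log2 fold change was 0.96 ± 0.22 (SE; edgeR adjusted p = 0.00690), a 1.95-fold higher level, the largest rise among the 9. Dlg2 passed in each of the 10 fits without 1 library, between 0.81 and 1.12, and was at 1.11 ± 0.18 without ibudilast 3.

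The transcript of Dlg4 stood at 804, 1126, 1091, 1120 and 946 CPM in untreated 1 to 5 and at 1099, 914, 509, 1094 and 874 CPM in ibudilast 1 to 5. Ibudilast 3 was below every untreated library and the other 4 ibudilast libraries lay inside the untreated range. For Dlg4 the log2 fold change was -0.18 ± 0.19 (SE; edgeR adjusted p = 0.483), and it was -0.026 ± 0.12 without ibudilast 3.

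Dlgap1 encodes GKAP, the adaptor between PSD-95 and SHANK. It stood at 226, 256, 304, 369 and 365 CPM in untreated 1 to 5 and at 380, 448, 312, 499 and 392 CPM in ibudilast 1 to 5. Ibudilast 1, 2, 4 and 5 were above every untreated library, and ibudilast 3 lay inside the untreated range. The log2 fold change was 0.42 ± 0.16 (SE), which missed the threshold (edgeR adjusted p = 0.0643). Of the 10 fits without 1 library Dlgap1 passed in 3, those lacking untreated 4, untreated 5 or ibudilast 3, and without ibudilast 3 it was at 0.50 ± 0.15 (edgeR adjusted p = 0.0242). It also passed with the range of the animal tag as a covariate, at 0.43 ± 0.13 (SE; edgeR adjusted p = 0.0267).

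**Figure D2:**
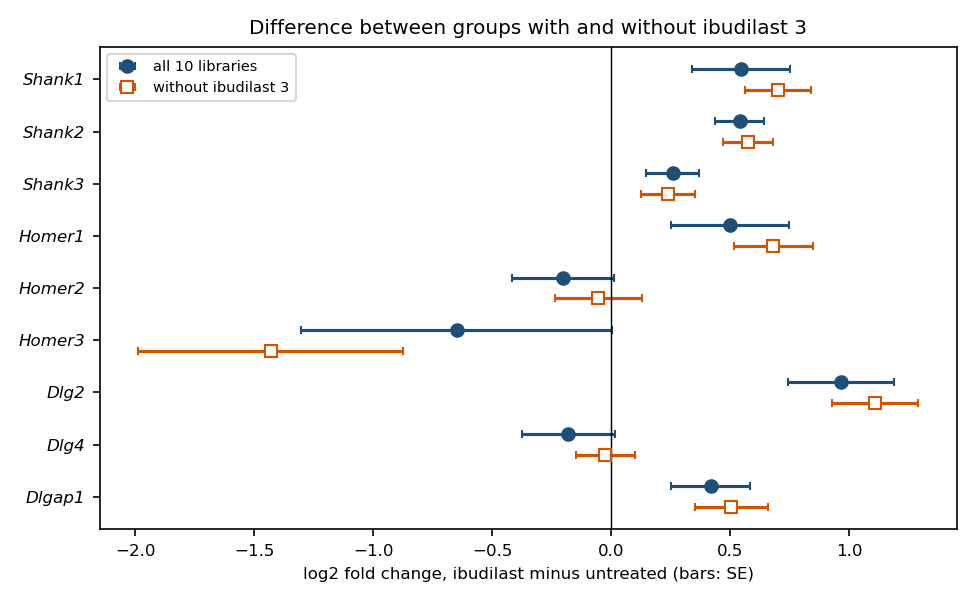
Log2 fold change, ibudilast minus untreated (horizontal axis), of the 9 scaffold transcripts with all 10 libraries (filled circles) and without ibudilast 3 (open squares), with bars of 1 SE from edgeR. Leaving out ibudilast 3 takes Shank1 from 0.55 to 0.70, Homer1 from 0.50 to 0.68 and Homer3 from -0.65 to -1.43, and moves Shank2 little (0.54 to 0.57).

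The titles carry animal tags in a low and a high range, with 3 rats of each group below 100 and 2 above 200, and what the tags stand for was not given. The difference in mean log2 CPM of Shank2 was 0.49 in the low and 0.62 in the high range, and that of Dlg2 was 0.86 and 1.07. Shank1 differed by 0.37 and 0.71, Homer1 by 0.28 and 0.62, and Dlgap1 by 0.53 and 0.27. Homer3 differed by -0.49 and -2.73. Ibudilast 3 is in the low range, and without it the low-range difference was 0.67 for Shank1, 0.64 for Homer1, 0.66 for Dlgap1 and -1.17 for Homer3. The 6 members above 0 with all libraries were above 0 in both ranges, and Dlg4 and Homer3 were below 0 in both, though Dlg4 was at 0.0086 in the low range without ibudilast 3. Homer2 changed sign, at -0.47 and 0.13.

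Whether relatives within a family differed in response was asked with the ratio of their counts inside each library, which does not depend on library scaling. There were 7 pairs, and the test was an exact permutation of 5 against 5 libraries, two-sided, for which the smallest possible p is 0.00794. The Dlg2 to Dlg4 ratio was higher with ibudilast by 1.17 ± 0.18 on the log2 scale (SE, n = 5 each; exact permutation p = 0.00794, adjusted p = 0.0556 over 7 pairs). Every ibudilast library (-3.22 to -2.65) was above every untreated library (-4.33 to -3.48), ibudilast 3 included at -2.78. A single pair at the smallest possible p cannot pass after adjustment over 7 pairs with 5 against 5 libraries, so the miss says nothing of the size of the difference. Without ibudilast 3 the difference was 1.15 (exact permutation p = 0.0159, adjusted p = 0.0417 over 7 pairs). The unadjusted p of this pair was thus larger than with all libraries. Its adjusted p was smaller because the p values of other pairs fell in that fit.

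Within the other families the separation was less clean. The Homer1 to Homer2 ratio was higher by 0.65 ± 0.22 (SE, n = 5 each; exact permutation adjusted p = 0.0556), in ranges that overlapped between 2.80 and 2.93. The Homer1 to Homer3 ratio was higher by 1.81 ± 1.05 (SE, n = 5 each; exact permutation adjusted p = 0.250), with -1.35 in ibudilast 3 against 0.24 to 4.31 in the other ibudilast libraries. Without ibudilast 3 that difference was 2.61 (exact permutation adjusted p = 0.0417), and that of Homer2 to Homer3 was 1.88 (exact permutation adjusted p = 0.0463), against 1.17 with all libraries (exact permutation adjusted p = 0.267). The Shank2 to Shank3 ratio differed by 0.29 ± 0.11 (SE, n = 5 each; exact permutation adjusted p = 0.111), or 0.34 without ibudilast 3 (exact permutation adjusted p = 0.0463). Shank1 against Shank3 differed by 0.25 with all libraries (exact permutation adjusted p = 0.407) and by 0.47 without ibudilast 3 (exact permutation adjusted p = 0.0417). The ratio of Shank2 to Shank1 differed by 0.039 ± 0.19 (SE, n = 5 each; exact permutation adjusted p = 0.913), and by -0.13 without ibudilast 3 (exact permutation adjusted p = 0.230). The passes without ibudilast 3 were not seen when any untreated library, ibudilast 1 or ibudilast 2 was left out instead. In none of those fits did a pair pass (lowest exact permutation adjusted p = 0.0556).

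**Figure D3:**
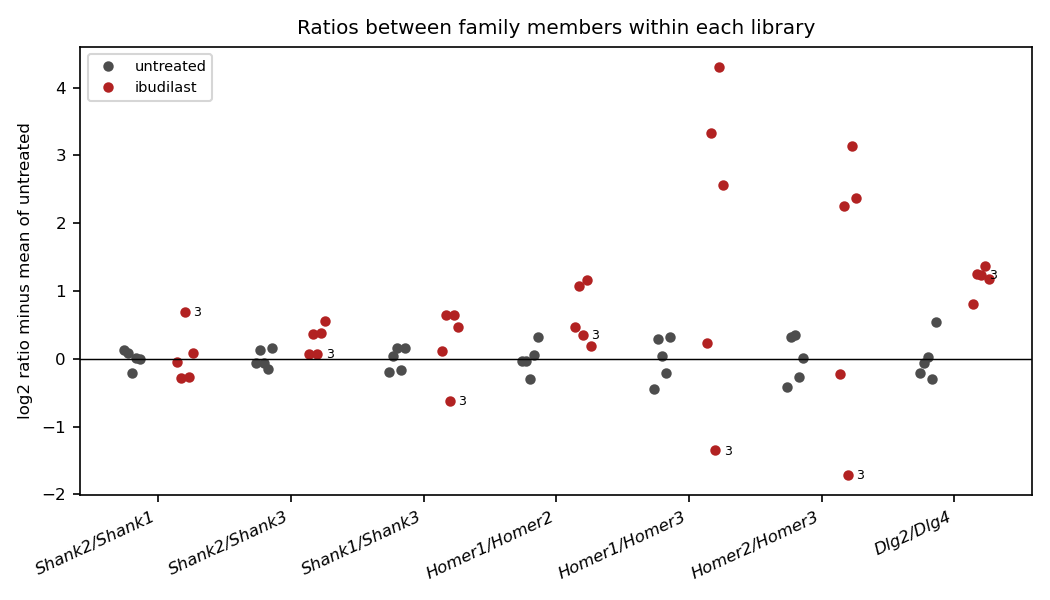
Log2 ratio of the counts of 2 family members within each library, with the untreated mean of each pair subtracted (vertical axis), for 7 pairs in 5 untreated (grey) and 5 ibudilast (red) libraries, ibudilast 3 marked with its number. Dlg2 to Dlg4 separates the groups with ibudilast 3 among the rest, while in the pairs with Homer3 ibudilast 3 lies below all other libraries.

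The sequences just upstream of the transcript start are given for the Dlg and Homer pairs whose ratios moved most, to show how the paralogs differ at that point. RefSeq windows in the GRCr8 build matched 6 of the 9 members, and none matched Shank1, Shank2 or Homer2. The 250 bases before the start lie at chr1:154539421-154539670 (plus strand) for Dlg2, chr10:55239534-55239783 (plus strand) for Dlg4, chr2:26278762-26279011 (plus strand) for Homer1 and chr16:19174599-19174848 (minus strand) for Homer3. Each is read 5′ to 3′ on the gene's own strand, and capitals mark CpG dinucleotides.
Dlg2: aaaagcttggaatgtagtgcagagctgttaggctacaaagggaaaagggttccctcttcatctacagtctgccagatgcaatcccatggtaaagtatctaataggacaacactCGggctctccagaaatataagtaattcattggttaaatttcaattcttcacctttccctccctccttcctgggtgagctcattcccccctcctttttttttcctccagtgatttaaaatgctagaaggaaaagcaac
Dlg4: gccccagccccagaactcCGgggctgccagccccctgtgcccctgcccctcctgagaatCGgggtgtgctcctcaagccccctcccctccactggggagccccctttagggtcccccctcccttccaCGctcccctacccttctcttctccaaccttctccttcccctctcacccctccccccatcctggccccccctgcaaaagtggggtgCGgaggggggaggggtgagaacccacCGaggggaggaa
Homer1: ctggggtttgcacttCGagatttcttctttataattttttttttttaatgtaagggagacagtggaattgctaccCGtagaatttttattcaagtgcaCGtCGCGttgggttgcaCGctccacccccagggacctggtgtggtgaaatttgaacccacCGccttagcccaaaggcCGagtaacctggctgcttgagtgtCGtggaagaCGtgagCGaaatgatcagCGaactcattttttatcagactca
Homer3: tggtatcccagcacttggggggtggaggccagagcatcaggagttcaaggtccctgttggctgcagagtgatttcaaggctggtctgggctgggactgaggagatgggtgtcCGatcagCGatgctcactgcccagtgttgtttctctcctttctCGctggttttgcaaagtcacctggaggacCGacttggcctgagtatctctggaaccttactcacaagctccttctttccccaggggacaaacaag
The Dlg2 window held 1 CpG and 42.4% G and C, and the Dlg4 window 5 CpG and 69.2%, against a median of 5 CpG over 33469 such windows. The Homer1 window held 12 CpG and the Homer3 window 4. Each window is a single annotated start, and Dlg2 is a gene with many.

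Because cyclic AMP acts on transcription through CREB, the 300-base windows of the 6 matched members (7 windows, from 250 bases before to 50 after the start) were searched on both strands for the cyclic AMP response element, TGACGTCA, and its core, TGACG, which the full site contains. The E-box CACGTG and the EGR sites GCGGGGGCG and GCGTGGGCG were searched too. None of the 7 windows held any of them. Shank1, Shank2 and Homer2 had no window, so the search does not cover them. Over all 33469 windows the full element was in 1.83%, the core in 21.2%, the E-box in 6.42% and the EGR sites in 2.73% and 0.544%. This says only that these letters are not in these windows.

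A further list held 8 guanylate kinase and DLGAP genes related to the Dlg and Dlgap members, a selection and not the whole of these families. Of the 8, 5 were higher with ibudilast and none lower, where 20.0% of all tested genes were higher. The median of the 8 was 0.74 on the log2 scale. Dlg1, which encodes SAP97, was at 57.1 ± 6.12 CPM untreated and 118 ± 21.2 CPM treated (SD, n = 5 each), or 1.05 ± 0.14 higher on the log2 scale (SE; edgeR adjusted p = 0.000913). Magi1, which encodes an inverted guanylate kinase scaffold of cell junctions, went from 21.3 ± 5.97 to 68.1 ± 12.2 CPM, and its relative Magi3 from 42.4 ± 4.49 to 78.1 ± 16.3 CPM. Dlgap4, a relative of Dlgap1, went from 176 ± 21.9 to 266 ± 29.7 CPM. For these 4 genes every ibudilast library, ibudilast 3 included, was above every untreated one, as it was for 12.5% of all tested genes. The fifth, Dlgap2, went from 22.4 ± 7.51 to 49.9 ± 22.6 CPM in ranges that overlapped. The 3 that did not pass were Dlg3, Dlgap3 and Magi2, and Dlgap3 had means of 405 ± 58.6 CPM untreated and 422 ± 117 CPM treated (edgeR adjusted p = 0.835). Dlgap2 and those 3 were named after their values were seen. Without ibudilast 3 Dlg3 and Magi2 passed too.

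Among 19 tested partners of the scaffolds inside the density, 6 were higher and 2 lower, with a median log2 fold change of 0.42, beside 20.0% higher and 18.5% lower over all tested genes. Arhgef7, which encodes the exchange factor beta-PIX that binds SHANK, went from 87.2 ± 16.1 to 159 ± 18.3 CPM (SD, n = 5 each). Tanc2, which encodes a scaffold that binds PSD-95, went from 34.9 ± 8.02 to 124 ± 53.2 CPM. Frmpd4, whose product Preso links PSD-95 and HOMER, went from 46.0 ± 15.8 to 95.6 ± 32.1 CPM. Nos1, the neuronal nitric oxide synthase that docks on PSD-95, was higher by 2.15 on the log2 scale, and by 1.63 once ibudilast 3, with 119 CPM, was left out. The 2 lower genes, named after their values were seen, were Begain, which encodes a PSD-95 binding protein, from 256 ± 32.7 to 161 ± 47.5 CPM, and Cttn, the cortactin gene, from 212 ± 28.9 to 148 ± 28.6 CPM. Without ibudilast 3, 11 were higher (22.0% of all tested genes were) and the same 2 lower, Kalrn and Sipa1l1 among the additions.

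Of 7 tested genes for partners bound by HOMER, 2 were higher and 5 did not pass, with a median of 0.51, beside 20.0% higher over all tested genes. Without ibudilast 3, 3 were higher and the median was 0.28. Dnm3, a dynamin gene, was at 22.0 ± 5.81 CPM untreated and 87.4 ± 29.8 CPM treated (SD, n = 5 each), or 1.99 ± 0.27 higher on the log2 scale (SE; edgeR adjusted p = 0.000980). Itpr1, the IP3 receptor gene, stood at 2193 CPM in ibudilast 3 and at 511 to 927 CPM in the other ibudilast libraries, against 253 to 506 CPM in the untreated ones. Itpr1 passed with all libraries (1.51 on the log2 scale) and without ibudilast 3 (1.02). Itpr1 is very abundant in Purkinje cells, and the part of cerebellar tissue in its level in ibudilast 3 was not tested.

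The postsynaptic adhesion, receptor and inhibitory lists are read against the same 20.0% higher and 18.5% lower of all tested genes. Without ibudilast 3, where 22.0% of all tested genes were higher, the adhesion list had 5 higher genes, the receptor list 6 and the inhibitory list 3. Of 12 adhesion genes 3 were higher and none lower (median 0.30): Lrrtm3 and Lrrc4c, ligands of presynaptic partners, and Nlgn2, the neuroligin of inhibitory synapses, which went from 210 ± 48.6 to 357 ± 20.9 CPM (SD, n = 5 each). Lrrc4c did not pass without untreated 1 (0.67, against 0.73 with all libraries). Of 13 glutamate receptor and TARP genes 4 were higher and 1 lower (median 0.47). Grin2a, an NMDA receptor subunit gene, went from 35.3 ± 15.1 to 90.3 ± 29.9 CPM, and Grin3a from 5.25 ± 3.73 to 14.5 ± 4.40 CPM. Gria4, an AMPA receptor subunit gene, had a log2 fold change of 1.30 with ibudilast 3 at 373 CPM, and 0.83 without that library. Cacng8, an auxiliary subunit gene of hippocampal AMPA receptors, was lower, from 148 ± 38.8 to 64 ± 37.3 CPM, and did not pass without untreated 4, untreated 5, ibudilast 2, ibudilast 4 or ibudilast 5 (-1.22 to -1.06 in those fits). Of 6 tested genes in the inhibitory list 3 were higher, Nlgn2 again, Lhfpl4 (12.8 ± 5.54 to 27.4 ± 2.02 CPM) and Neurl1 (45.9 ± 7.84 to 71.7 ± 13.5 CPM). Neurl1 was listed there but is not an established component of the inhibitory postsynapse. Gphn, the gephyrin gene, had a log2 fold change of 0.0088 (edgeR adjusted p = 0.948).

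Homer1a belongs to the activity-induced transcripts, and 5 of 15 tested genes of that class were higher and 1 lower, with a median of 0.70, beside 20.0% higher and 18.5% lower over all tested genes. The early response factor gene Egr1 was at 54.7 ± 18.2 CPM untreated and 165 ± 89.6 CPM treated (SD, n = 5 each), Egr2 from 2.90 ± 1.07 to 8.79 ± 4.94 CPM and Npas4 from 4.33 ± 3.75 to 23.8 ± 15.9 CPM. Bdnf, the neurotrophin gene, was lower, from 63.6 ± 13.5 to 27.6 ± 12.8 CPM. The Egr1 groups overlapped, with untreated libraries at 39.5 to 85.1 CPM and treated ones at 54.8 to 258 CPM. Without ibudilast 3, 10 of the 15 were higher (22.0% of all tested genes were), Arc and Junb among those added, and Bdnf was again the 1 lower.

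**Figure D4:**
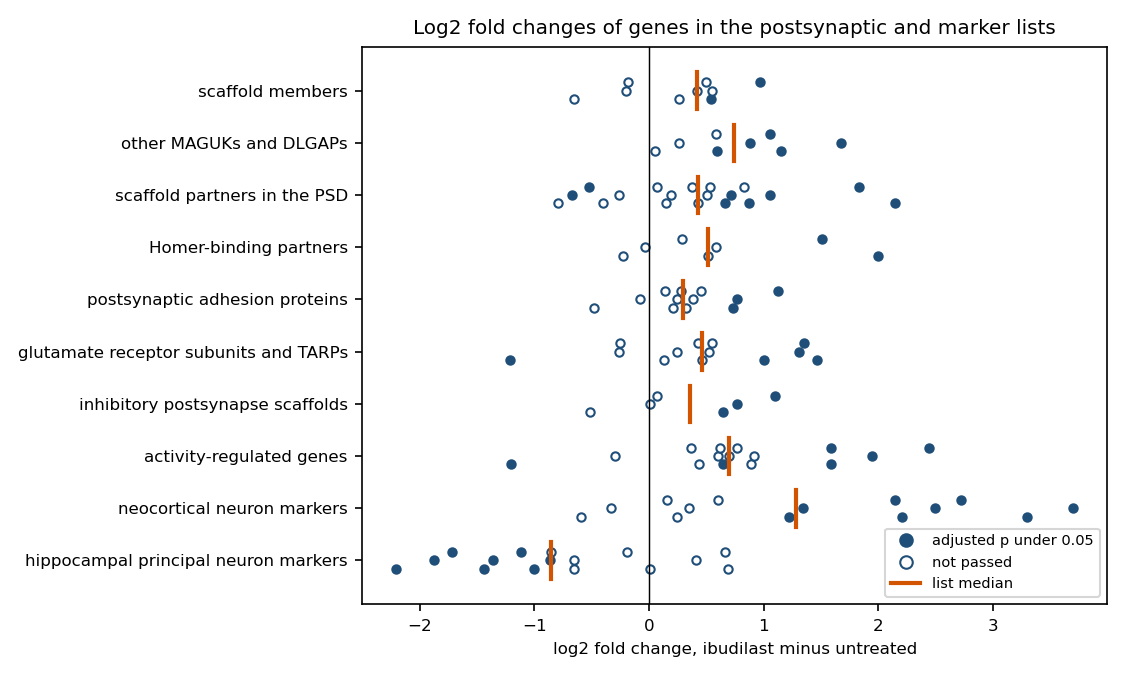
Log2 fold change, ibudilast minus untreated (horizontal axis), of each tested gene in the scaffold list, 7 further postsynaptic and activity lists and 2 marker lists, filled where the edgeR adjusted p was under 0.05, with the list median as an orange line. The scaffold median is 0.42, between the marker lists for neocortical (1.28) and hippocampal principal neurons (-0.86).

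Scaffold levels were set beside neocortical marker levels library by library, since the marker sum differed between the groups. The neocortical sum was highest in ibudilast 4, ibudilast 2 and ibudilast 5 (1504, 1489 and 1192 CPM), followed by ibudilast 1 at 1029 CPM, and ibudilast 3 had 909 CPM, inside the untreated range. Homer1 had its 3 highest levels in those same 3 libraries, and Homer3 its 3 lowest. Among the ibudilast libraries Dlg2 and Dlgap1 fell in the order of the neocortical sum (ibudilast 4, 2, 5, 1 and 3). Dlg2 stood there at 174, 134, 121, 118 and 74.1 CPM, and Dlgap1 at 499, 448, 392, 380 and 312 CPM. Neither kept to the order of the sum among the untreated libraries. Shank2 did not follow the order of the sum in the ibudilast libraries, with 325 CPM in ibudilast 3 and 326 CPM in ibudilast 2. With the neocortical score as a covariate, a fit in which 13.5% of all tested genes were higher, Shank2 passed (log2 fold change 0.51, edgeR adjusted p = 0.0427) and Dlg2 did not (0.35, edgeR adjusted p = 0.342). With the hippocampal score as a covariate, where 4.24% of all tested genes were higher, neither passed, at 0.51 and 0.97 (edgeR adjusted p = 0.0685 and 0.0969). The neocortical covariate turned the direction of Shank1 (-0.056), Homer1 (-0.48) and Homer3 (0.70), none of which passed there. The neocortical score was -0.70 to -0.24 in the untreated libraries. In the ibudilast libraries it was -0.49 in ibudilast 3 and 0.23 to 0.99 in the others. The only ibudilast library with a score in the untreated range was thus ibudilast 3. The fit was not run without it, so these reversals may rest on that 1 library.

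**Figure D5:**
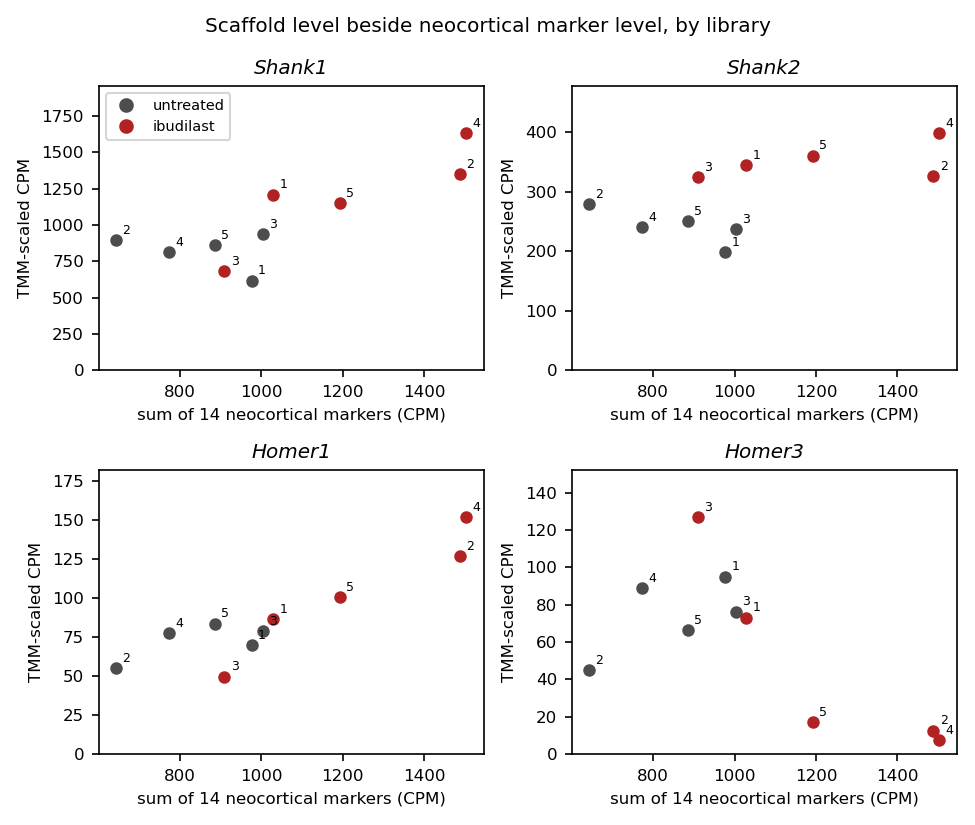
Level of Shank1, Shank2, Homer1 and Homer3 (vertical axes, TMM-scaled CPM, from 0) against the summed level of 14 neocortical markers (horizontal axis, CPM) in each untreated (grey) and ibudilast (red) library, numbered by replicate. Homer1 is highest and Homer3 lowest in the 3 libraries with the most marker signal, at 1192 to 1504 CPM, while Shank2 is about as high in ibudilast 3 (325 CPM) as in ibudilast 2 (326 CPM).

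Both members that passed are long genes. Dlg2 spans more of the genome than 99.9% of tested genes, Dlgap1 more than 99.5% and Shank2 more than 98.2%, and the tenth of genes with the longest span had a median log2 fold change of 0.38. Homer1 (86.9%), Homer2 (85.4%), Shank3 (78.9%) and Shank1 (70.55%) came next. Dlg4, at 55.0%, and Homer3, at 25.8%, are shorter. The members did not all rank by span, with Homer2 at a log2 fold change of -0.20 and Shank1 at 0.55. With the trend of expression on span removed, Shank2 was at 0.080 (edgeR adjusted p = 0.567) and Dlg2 at 0.26 (edgeR adjusted p = 0.108), and no member passed, where 15.6% of all tested genes were higher. The part of gene span in the result was not tested.

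The genes most like each member were sought among 10204 other genes by the Pearson correlation of log2 CPM over the 10 libraries after the group means were taken out. It is a description of these 10 libraries, which share depth and tissue make-up. Values in brackets leave out ibudilast 3. For Shank1 the 3 closest were Clec11a at 0.98 (0.96), Ctnnd2, which encodes the synaptic catenin delta-2, at 0.97 (0.92) and the adrenergic receptor gene Adrb1 at 0.97 (0.91). Shank2 was closest to Crnkl1 at 0.96 (0.96), Zmynd11 at 0.88 (0.88) and Utp20 at 0.88 (0.88). Shank3 was closest to St3gal2 at 0.89 (0.91), Cenpj at 0.88 (0.89) and Smim15 at 0.87 (0.91).

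Among the Homer genes, Homer1 was closest to Enpp5 at 0.99 (0.98), Kifap3 at 0.98 (0.95) and Mapk10, a neuronal JNK gene, at 0.98 (0.94). Homer2 was closest to Tsc22d1 at 0.93 (0.86), Phospho2 at 0.91 (0.80) and Meis2 at 0.91 (0.81), and Homer3 to Brf2 at 0.96 (0.93), Rdh11 at 0.95 (0.91) and Ddx49 at 0.95 (0.91). Dlg2 was closest to Rhbdd2 at 0.97 (0.95), the dendritic microtubule protein gene Map2 at 0.97 (0.95) and Ttbk1 at 0.97 (0.94). Dlg4 was closest to Agap2, a GTPase gene whose product binds HOMER, at 0.98 (0.92), Bap1 at 0.97 (0.90) and Celf5 at 0.97 (0.89), and Dlgap1 to Rnf44 at 0.97 (0.98), Ptprj at 0.97 (0.98) and Slc4a8 at 0.97 (0.98).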

How the data were processed

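RNA from 10 left hippocampi was made into strand-specific mRNA libraries, per the labels. The authors deposited expected counts per gene; the submitters' processing notes name RSEM 1.2.15, Bowtie2 2.1.0, bcl2fastq 2.17 and the rn6 build. The gene annotation and whether counting used strand: not given in the sources used here. A second deposited table holds signal values, the authors' TMM-scaled CPM, and the members' CPM computed here differed from it by at most 1.02%. Treatment labels gave the groups, and titles the replicate numbers. Within groups, pairs of libraries differed by more than sampling noise (chi-square per degree of freedom 13.2 to 73.5).

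Counts were rounded and tested with edgeR 4.0.16 in R 4.3.3 (filterByExpr, TMM factors, quasi-likelihood test; calls at a Benjamini-Hochberg adjusted p below 0.05). SEs follow from the quasi-likelihood statistic. Ratios used counts plus 0.5. Covariate scores are mean z-scores of log2 CPM over a marker list. Span came from the GRCr8 RefSeq table, found for 98.2% of tested genes, and is approximate for rn6 counts. 25 rows carried a date in place of a symbol, none a member. On simulated counts for 11607 genes with 200 changed, the test found 32% of the 1.5-fold and 74% of the 2-fold changes, and 4 of its 110 calls were false. Far fewer genes were changed there than the 4497 called in the data, so these shares do not give the sensitivity of the real comparison.

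The members and lists were chosen with earlier results of these data known. All 9 members are named, as are up to 4 called genes of smallest p (or 2 where none passed) from each further postsynaptic or activity list, and the genes most like each member, the 3 of highest correlation among tested genes with a mean CPM of at least 5 (prior count 2). Other named genes were chosen after their values were seen. Each library has its own animal tag, and litters are not stated. Alternatives covered scaling, filters, DESeq2 1.42.0, limma 3.58.1 (voom on counts, and trend on the deposited CPM with pseudocounts of 0.5 and 0.1), unrounded counts, a replicate block and each library left out. Marker-score and tag covariates, span removal and a set of 3 libraries left out were added after seeing the data.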

Additional observations from a re-analysis of the deposited data

Results flagged for a closer look

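The level of 1 library stood far from the other 4 of its group, by Dixon's criterion, in 5 of 78 groups examined, and chance alone flags about 1 in 20. No scaffold member and no family ratio was among them. Ibudilast 3 accounted for 3 of the 5: Nos1 at 119 CPM against 25.1 to 43.1 CPM in the other ibudilast libraries, Itpr1 at 2193 CPM against 511 to 927 CPM, and Gria4 at 373 CPM against 90.4 to 150 CPM. In the untreated group Grin3a reached 11.7 CPM in untreated 5 against 2.55 to 4.53 CPM, and Npas4 10.9 CPM in untreated 2 against 1.37 to 3.39 CPM.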

How the results depend on the processing

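The calls of Shank2 and Dlg2 held under RLE and upper-quartile factors, library totals, both other filters, unrounded counts, DESeq2, limma-voom, limma-trend with either pseudocount, the animal tag range (which added Dlgap1), each library left out and the set of 3 libraries left out (ibudilast 3, ibudilast 5 and untreated 1). The count of members called was 4 with library totals only (Shank1 and Dlgap1 added; 22.1% of all tested genes higher), 4 without the 3 libraries (Shank1 and Homer1 added; 15.0% higher), 1 with the neocortical score, 0 with the hippocampal score and 0 with the span trend removed. With 1 library left out it ran from 2 to 5, the 5 without ibudilast 3. DESeq2 called 3 members, with Shank1 at an adjusted p = 0.0316 (20.1% of its tested genes higher). The size of the Homer3 difference depended on the method even with all 10 libraries. It was -0.65 in the main fit, -1.41 with limma-voom, -1.37 and -1.40 with limma-trend and -1.34 with the replicate block. Homer3 passed in none of these fits.

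Over all genes 4497 were called, 2667 with the neocortical score, 857 with the hippocampal score (3315 at an unadjusted p under 0.05) and 3458 to 4751 with 1 library left out. Directions turned with the neocortical score for Shank1 (-0.056), Homer1 (-0.48), Homer3 (0.70) and Lrrc4c (-0.015), with the hippocampal score for Homer2 (0.063) and Dlg4 (0.077), and with the span trend removed for Dlgap1 (-0.13). Some partner calls were lost too. With the hippocampal score Nos1, Itpr1, Gria4, Cacng8 and Lrrc4c did not pass (edgeR adjusted p = 0.139, 0.351, 0.493, 0.652 and 0.133). With the neocortical score Cacng8 and Lrrc4c did not (edgeR adjusted p = 0.0756 and 0.961). With the span trend removed Gria4 and Lrrc4c did not (edgeR adjusted p = 0.0739 and 0.596). Nos1 and Itpr1 passed in the last 2 fits. The cause was not tested.

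With 1 library left out the ratio differences ran from -0.13 to 0.12 for Shank2 to Shank1 (-0.015 without untreated 3), 0.22 to 0.34 for Shank2 to Shank3, 0.15 to 0.47 for Shank1 to Shank3, 0.52 to 0.76 for Homer1 to Homer2, 1.19 to 2.61 for Homer1 to Homer3, 0.67 to 1.88 for Homer2 to Homer3 and 1.09 to 1.30 for Dlg2 to Dlg4. Without the 3 libraries the Shank2 to Shank1 difference was -0.17.

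Replicate numbers did not pair the samples: same-numbered libraries correlated between -0.127 and 0.0226 after group means were removed, and no library correlated best with its own number. With the replicate block 3535 genes and 2 members were called (Shank2 0.54, edgeR adjusted p = 0.0137; Dlg2 0.95, edgeR adjusted p = 0.0204). Homer2 had the fewest counts, 56 to 152 per library, with an SE of 0.21, against 0.21 for Shank1 at 4190 to 13909 counts.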
